A study of Rattus norvegicus with 15 samples.

Results

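Liver sinusoidal endothelium and its change toward a capillary type of vessel were followed through 9 genes of the count table. Of these genes, 6 mark sinusoidal endothelial cells (Stab1, Stab2, Lyve1, Clec4g, Oit3 and Ehd3). The other 3 were taken as markers of capillaries or larger vessels (Vwf, Plvap and Cd34). The 9 genes were chosen by symbol from 10 named genes, out of 32623 genes in the table, and all 9 passed the filter on low counts that left 14417 genes for testing. The tenth name, Pecam1, was not analysed here. Ehd3 was picked because its level was higher with eplerenone in these same livers. Its values are therefore given as a description, with no test in any comparison, and statistics below refer to the other 8 genes. These 8 and the gene lists used below were also chosen with earlier results of these data known. Their calls, directions and medians, set beside those of all genes, are therefore descriptive and no independent test.

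Poly(A) RNA of whole liver from male Wistar rats was sequenced in 3 groups. Control rats were untreated (n = 4). Cirrhosis rats inhaled CCl4, a solvent that injures hepatocytes, for 12 weeks with phenobarbital at 0.35 g/L in the drinking water (n = 5). Cirrhosis & eplerenone rats had the same CCl4 and phenobarbital, and from week 8 also received eplerenone, a mineralocorticoid receptor antagonist, at 100 mg/kg (n = 5). In both CCl4 groups livers were taken 7 to 10 days after the last inhalation. Controls lacked both CCl4 and phenobarbital, so the comparisons with control cover both agents together. The sequenced animals were a subgroup that the authors took from a larger study by how well cirrhosis induction or eplerenone had worked, which limits the groups as samples of the model. Controls carry 13 (replicate 2) or 16 (replicates 3 to 5) and CCl4 rats 15 or 20 as the number that opens their labels, whose meaning is not stated, so that label number and CCl4 cannot be told apart in any comparison with control. Every library is 1 rat, and the libraries held 16157491 to 21574767 counted reads, so that 3 counts correspond to 0.121 to 0.191 FPM (fragments per 1e+06, here counts over TMM-scaled library sizes). The 8 hepatocyte markers summed to between 106112 and 202751 FPM in all livers.

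Sinusoidal endothelial cells line the exchange vessels of the liver. They are perforated by fenestrae, lack a continuous basement membrane and clear macromolecules from blood through scavenger receptors. In chronic injury they can lose fenestrae and gain a basement membrane and surface proteins of ordinary capillaries, a change called capillarization. The members cover both sides. Stab1 and Stab2 (stabilins) are scavenger receptors, Stab2 being a main hyaluronan clearance receptor, Lyve1 is a hyaluronan receptor shared with lymphatic vessels, Clec4g is a C-type lectin of sinusoidal endothelium, Oit3 is a protein with a zona pellucida domain, and Ehd3 is an EH-domain ATPase that acts in endocytic recycling. On the capillary side, Vwf (von Willebrand factor) is the platelet adhesion protein stored in endothelial Weibel-Palade bodies, Plvap builds the diaphragms of caveolae and fenestrae, and Cd34 is a surface sialomucin of capillaries.

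The sequence before the start of 8 of the 9 genes was matched in RefSeq (GRCr8, whereas the counts were made on rn6); Vwf had no entry. In the 250 bases before the start, Ehd3 held 17 CG dinucleotides and Cd34 14, whereas Stab1 and Plvap held 8 each, Stab2, Lyve1 and Oit3 2 each and Clec4g 1, beside a median of 5 over 33465 promoters. Over the 14 livers, Stab2 and Clec4g were the 2 members with the most similar log2 levels (Pearson r 0.94), closely followed by Vwf and Plvap (0.93). After group means were subtracted Vwf and Plvap were closest (0.93, against 0.92 for Stab2 and Clec4g). The promoters of Stab2, Clec4g, Ehd3 and Plvap are shown 5′ to 3′ in the direction of the gene, with CG dinucleotides in capitals.
Stab2, chr7:23320563-23320812, minus strand: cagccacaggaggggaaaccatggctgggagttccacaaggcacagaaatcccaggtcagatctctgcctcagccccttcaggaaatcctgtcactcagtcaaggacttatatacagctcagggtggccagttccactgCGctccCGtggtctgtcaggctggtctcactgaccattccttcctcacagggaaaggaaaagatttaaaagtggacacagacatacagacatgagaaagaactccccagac
Clec4g, chr12:6582914-6583163, minus strand: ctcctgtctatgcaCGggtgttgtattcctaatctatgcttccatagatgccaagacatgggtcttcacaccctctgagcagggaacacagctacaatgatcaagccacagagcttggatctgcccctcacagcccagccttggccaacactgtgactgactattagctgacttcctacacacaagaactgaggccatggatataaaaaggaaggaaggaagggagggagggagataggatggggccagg
Ehd3, chr6:27417446-27417695, minus strand: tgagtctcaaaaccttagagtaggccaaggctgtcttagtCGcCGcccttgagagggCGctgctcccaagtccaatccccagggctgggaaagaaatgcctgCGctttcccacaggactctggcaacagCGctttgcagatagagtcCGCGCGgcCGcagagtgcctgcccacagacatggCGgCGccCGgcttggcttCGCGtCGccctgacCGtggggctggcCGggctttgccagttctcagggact
Plvap, chr16:18231280-18231529, minus strand: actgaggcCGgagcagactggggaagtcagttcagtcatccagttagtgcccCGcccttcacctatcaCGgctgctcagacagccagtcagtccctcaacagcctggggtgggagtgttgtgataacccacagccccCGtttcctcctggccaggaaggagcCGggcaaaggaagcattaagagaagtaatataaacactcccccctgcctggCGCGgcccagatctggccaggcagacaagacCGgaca

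Letters of several motifs were searched on both strands of these windows. The full palindromic steroid response element was in none of the 8 promoters and in 0.012% of all promoters, and its AGAACA part was in Lyve1 and in 17.5% of all promoters. The GATA letters AGATAA (10.3% of all promoters), the ETS letters CCGGAAG (7.27%) and the KLF letters CCACACCC (2.84%) were in no member. The alternative GATA letters TGATAA were in Plvap (7.97% of all promoters), and TATAAA was in Clec4g and Plvap (12.9%). The full element contains AGAACA, and none of the other motifs holds another of them whole.

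The first question was how the 2 kinds of endothelial genes differed between cirrhosis and control livers. Of the 8 genes tested, 2 fell (Oit3 and Stab1) and 2 rose (Vwf and Plvap) at an FDR below 0.05 with edgeR. Among all genes, 20.2% passed the same test, 13.4% higher and 6.71% lower. All 5 sinusoidal genes tested had a lower fitted mean in cirrhosis, and all 3 capillary genes a higher one; a positive log2FC was found for 49.3% of all genes. The median log2FC was -0.97 over the 5 sinusoidal genes and 1.72 over the 3 capillary genes, beside -0.01 over all genes. In whole liver, fewer cells of a type and less RNA per cell cannot be told apart.

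Oit3 had the largest drop of the tested sinusoidal genes. Its level was 16.5, 16.1, 16.9 and 17.6 FPM in control replicates 2 to 5 and 7.27, 4.08, 9.87, 6.26 and 6.90 FPM in cirrhosis replicates 1 to 5. The controls lay close together and every cirrhosis liver was below all of them. Groups did not overlap in this comparison for 2 of the 8 genes tested, Oit3 and Stab1, beside 20.2% of all genes. Means were 16.8 ± 0.642 (SD, n = 4) and 6.88 ± 2.08 FPM (SD, n = 5), 2.44-fold lower in cirrhosis (log2FC -1.29, SE 0.23, FDR 0.00262). The call held when any 1 library was left out.

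Stab1 was 49.1, 29.0, 28.6 and 31.5 FPM in the controls and 24.1, 28.0, 18.3, 18.4 and 22.1 FPM in the cirrhosis livers. The groups did not overlap, as was so for 20.2% of all genes. The gap between the groups was narrow, and control replicate 2 stood above the other controls. The decrease was 1.56-fold (log2FC -0.64, SE 0.19, FDR 0.032). Without control replicate 2 the log2FC was -0.42 with FDR 0.112, and the call was also lost without control replicate 5 (FDR 0.0594) or without cirrhosis replicate 1, 3 or 4 (FDR 0.0603, 0.0767 and 0.0850). With libraries scaled by total counts, which moved the median log2FC of all genes to 0.28, Stab1 was at -0.35 (FDR 0.323).

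Stab2, Clec4g and Lyve1 spread widely among the cirrhosis livers. Stab2 was 28.2, 25.6, 29.4 and 29.4 FPM in controls and 27.7, 2.16, 22.7, 6.10 and 12.1 FPM in cirrhosis replicates 1 to 5. Clec4g was 31.7, 33.0, 36.8 and 43.8 FPM in controls and 36.1, 0.816, 24.4, 7.49 and 23.9 FPM in cirrhosis. Lyve1 was 74.2, 50.02, 62.4 and 48.4 FPM in controls and 79.4, 13.5, 55.0, 26.5 and 34.5 FPM in cirrhosis. For all 3 genes cirrhosis replicate 1 lay within or above the control range, replicate 2 was the lowest of all 14 livers and replicate 4 the second lowest. The coefficient of variation of Stab2 was 6.40% in controls and 76.5% in cirrhosis, and that of Clec4g 15% and 76.7%.

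None of these 3 genes passed the test in cirrhosis against control. The log2FC was -0.99 for Stab2 (95% interval -2.06 to 0.07, FDR 0.160), -0.97 for Clec4g (-2.29 to 0.35, FDR 0.260) and -0.49 for Lyve1 (-1.26 to 0.28, FDR 0.328). These intervals include no difference as well as a decrease larger than that of Oit3 for Stab2 and Clec4g. In the same liver 2 macrophage markers, picked after their values were seen, were also at their lowest, where Clec4f was at 8.08 FPM against 27.7 to 133 FPM in the other cirrhosis livers and Vsig4 at 0.408 FPM against 2.00 to 17.6 FPM. The whole macrophage list was split, with 5 of 10 genes tested higher and 5 lower in cirrhosis than in control. Of these 1 fell, the scavenger receptor Cd163 (log2FC -1.22, FDR 0.0163), and none rose, beside 6.71% and 13.4% of all genes. The summed level of the 10 genes ranged from 341 to 601 FPM in controls, from 194 to 760 FPM in cirrhosis and from 280 to 778 FPM in cirrhosis & eplerenone. The part of macrophages in the levels of Stab1 and Lyve1, which they can also express, was not tested.

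**Figure D1:**
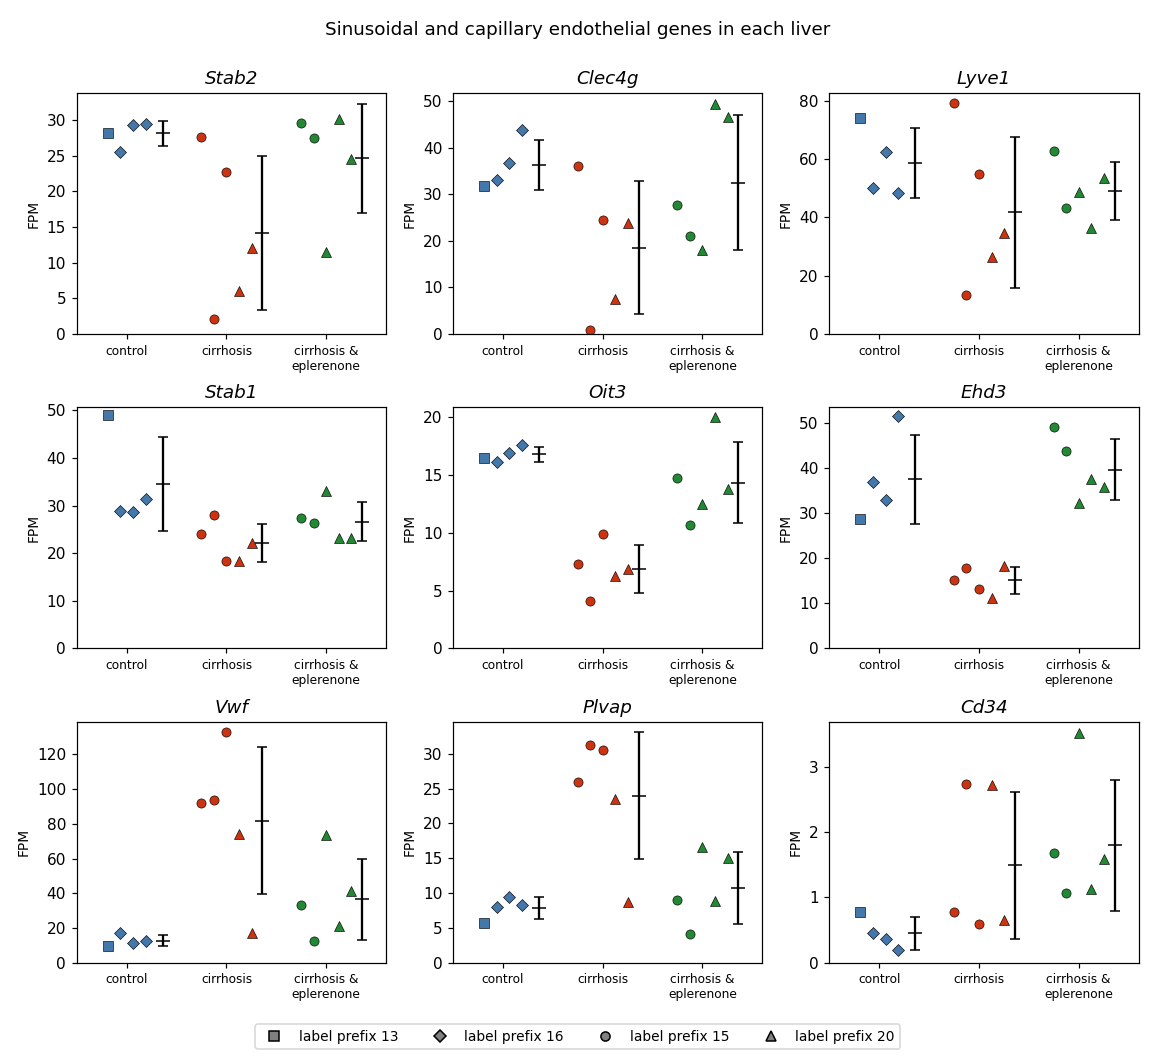
Level of each member in FPM (linear axis from 0) in every liver, with 1 point per rat and the mean ± SD of each group (control n = 4, cirrhosis n = 5, cirrhosis & eplerenone n = 5). Oit3 and Ehd3 of all cirrhosis livers lie below the controls, whereas Stab2, Clec4g and Lyve1 spread from the control range down to 2.16, 0.816 and 13.5 FPM.

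On the capillary side, Vwf rose most. It was 9.65, 17.1, 11.54 and 12.5 FPM in controls and 91.7, 94.0, 133, 74 and 16.9 FPM in cirrhosis. Cirrhosis replicate 5 lay within the control range, and the other 4 cirrhosis livers were far above it. Means of 12.7 ± 3.17 (SD, n = 4) and 81.9 ± 42.1 FPM (SD, n = 5) gave a 6.45-fold increase (log2FC 2.69, SE 0.54, FDR 0.00439). Plvap had the same shape, with 5.73, 8.04, 9.46 and 8.27 FPM in controls and 26.0, 31.2, 30.6, 23.5 and 8.69 FPM in cirrhosis, where replicate 5 was again the one among the controls. Plvap increased 3.05-fold (log2FC 1.61, SE 0.40, FDR 0.0129). Both calls held when any 1 library was left out.

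Cd34 was measured near the limit of detection. It had 13, 8, 6 and 3 counts in the controls, or 0.784, 0.463, 0.366 and 0.191 FPM. In cirrhosis it had 14, 67, 11, 53 and 11 counts, or 0.777, 2.73, 0.593, 2.72 and 0.655 FPM. Replicates 2 and 4 were above all controls and the other cirrhosis livers were inside the control range. The log2FC was 1.72 (95% interval 0.40 to 3.04, FDR 0.0604 with edgeR and 0.0253 with DESeq2), so that the call depended on the tool. DESeq2 called 5 of the 8 genes in this comparison, the 4 of edgeR and Cd34, beside 27.8% of all genes.

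The 2 groups of genes were not mirror images within the cirrhosis livers. Replicates 2 and 4, lowest in Stab2, Clec4g and Lyve1, were highest in Cd34. Replicate 5, lowest in Vwf and Plvap, had intermediate Stab2 (12.1 FPM) and Clec4g (23.9 FPM), and replicate 1 had control levels of Stab2 together with 91.7 FPM of Vwf. As a description over 14 libraries, which share groups and scaling, Stab2 had Clec4g as the gene with the most similar log2 profile among 12293 protein coding genes (Pearson r 0.94), followed by Krt79 (0.93), Gpr182 (0.93), Slc8b1 (0.89) and Bcl7b (0.88). Gpr182 is an atypical chemokine receptor of sinusoidal endothelium. After group means were subtracted, the closest were Krt79 (0.95), RGD1566099 (0.92), Gpr182 (0.92), Clec4g (0.92) and Dnase1l3 (0.91). For Cd34 the closest before subtraction were Camk2d, Ptpn13, Mylip, Ccdc88c and Gca (0.91 to 0.93), and after it Adcy7, Camk2d, Rps6ka3, Ccdc88c and LOC100910838 (0.90 to 0.92).

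**Figure D2:**
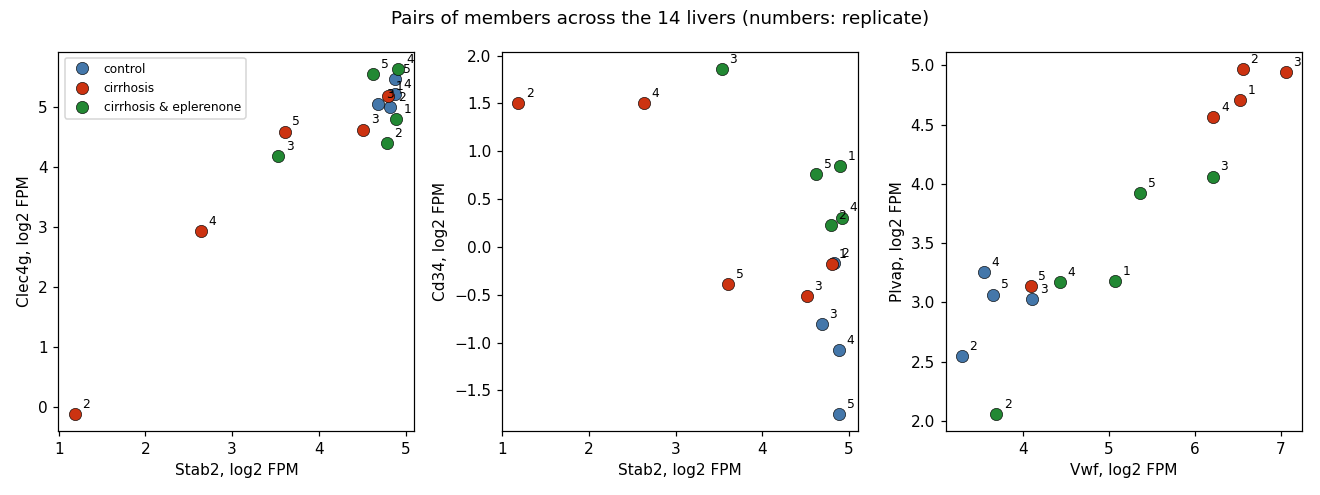
Log2 FPM of Stab2 against Clec4g, Stab2 against Cd34, and Vwf against Plvap, with 1 point per liver coloured by group and numbered by replicate. Cirrhosis replicates 2 and 4 lie at the low end of Stab2 and Clec4g and the high end of Cd34, and cirrhosis replicate 5 lies among the controls for Vwf and Plvap.

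Ehd3 was 28.7, 36.9, 32.9 and 51.5 FPM in controls, 15.1, 17.8, 13.1, 11.2 and 18.3 FPM in cirrhosis and 49.1, 43.7, 32.2, 37.5 and 35.8 FPM in cirrhosis & eplerenone. All 5 cirrhosis livers were below every liver of both other groups, and those 2 groups overlapped. The lowest value with eplerenone was 32.2 FPM and the highest without it 18.3 FPM. Group means were 37.5 ± 9.89 (SD, n = 4), 15.1 ± 3.04 (SD, n = 5) and 39.7 ± 6.71 FPM (SD, n = 5). The level was 2.48-fold lower in cirrhosis than in control (log2FC -1.31). With eplerenone it was 2.63-fold higher than in cirrhosis (1.39) and near control (0.08). This is the pattern for which the gene was taken. Its spread among cirrhosis livers did not follow Stab2 or Clec4g, since replicate 2 had the second highest Ehd3 of that group and the lowest level of both other genes. This was not particular to Ehd3, since replicate 2 also had the highest Stab1 of that group (28.0 FPM).

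The other EHD genes, which share the EH domain and the ATPase fold and act at different membranes of the endocytic and caveolar system, did not share the levels of Ehd3. Ehd4 rose in cirrhosis, from 6.27, 6.24, 8.06 and 5.60 FPM in controls to 21.6, 24.5, 25.7, 31.4 and 11.2 FPM (log2FC 1.81, SE 0.36, FDR 0.00415). With eplerenone it was 12.4, 7.45, 29.3, 12.4 and 17.0 FPM, above control (1.26, FDR 0.0489) and not different from cirrhosis at the threshold (-0.54, FDR 0.409). Ehd1 had group means of 67.0, 70.7 and 73.5 FPM in control, cirrhosis and cirrhosis & eplerenone, with log2FC values of 0.08 (FDR 0.802) for cirrhosis and 0.06 (FDR 0.895) for eplerenone. Ehd2, which sits at caveolae, had means of 1.93, 4.02 and 4.18 FPM (log2FC 1.06, FDR 0.0657 for cirrhosis against control). Of 10 EHD relatives and binding partners tested, Ehd4 was the 1 that passed with edgeR in cirrhosis against control, beside 20.2% of all genes, the median log2FC being -0.05. DESeq2 called 2 of 10, Ehd4 and Ehd2 (FDR 0.0310), beside 27.8% of all genes. The same 2 genes did not overlap between these groups, beside 20.2% of all genes. Pacsin1 was below the filter.

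**Figure D3:**
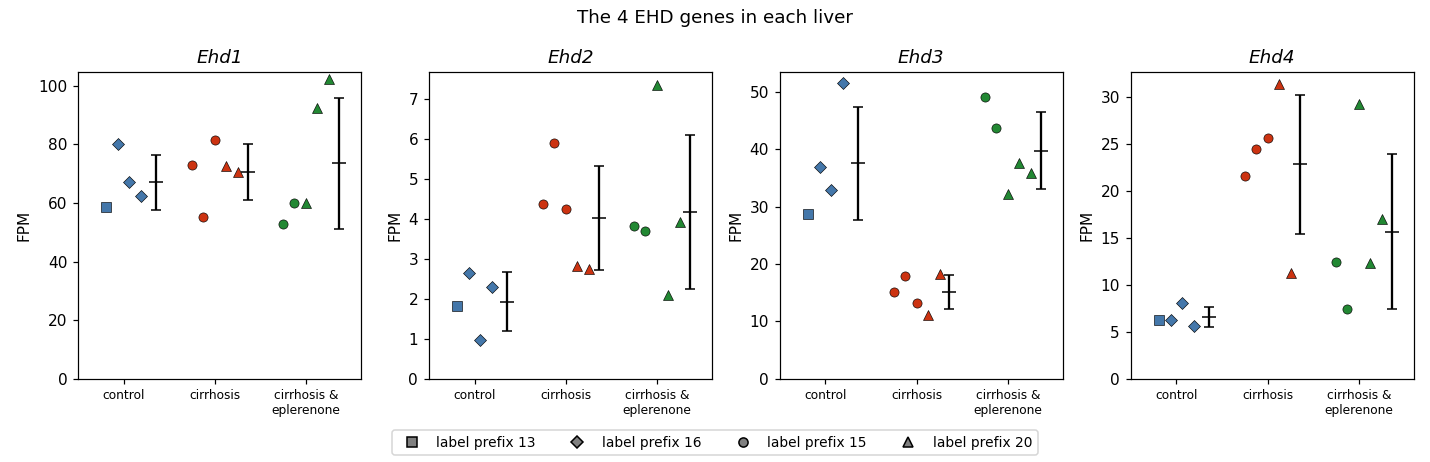
Level of Ehd1, Ehd2, Ehd3 and Ehd4 in FPM (linear axis from 0) in each liver, with group mean ± SD. Ehd3 is low in all 5 cirrhosis livers (11.2 to 18.3 FPM), while Ehd4 is higher in cirrhosis than in control and Ehd1 overlaps between all 3 groups.

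The genes whose log2 profile over the 14 libraries was most like Ehd3 were Larp1 (r 0.90), Cdc42bpa (0.89), Nsd1 (0.89), LOC102552988 (0.89) and Rbm33 (0.88). After group means were subtracted they were Gna11 (0.91), Prpf8 (0.88), Lrp6 (0.88), AABR07062570.1 (0.87) and Tomm70 (0.87). No member was among either 5.

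The second question was how the endothelial genes differed between cirrhosis livers with and without eplerenone. With edgeR 0 of the 8 genes passed an FDR of 0.05, as did 0.0139% of all genes (2 of 14417). At an unadjusted p below 0.05 there were 3 of 8 (Oit3, Plvap and Vwf) beside 14.4% of all genes, and DESeq2 called 1 of 8, Oit3, beside 0.513%. All 5 sinusoidal genes tested had a higher fitted mean with eplerenone (median log2FC 0.80), as had 51.1% of all genes. The comparisons of eplerenone with cirrhosis and of cirrhosis with control share the cirrhosis livers, so that a low or high value in those livers enters both with opposite sign.

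Oit3 with eplerenone was 14.7, 10.6, 12.5, 20.04 and 13.8 FPM, above all 5 cirrhosis livers, of which the highest was 9.87 FPM. Groups that did not overlap were found for 0.964% of all genes in this comparison. The difference was 2.09-fold (log2FC 1.06, SE 0.22, 95% interval 0.59 to 1.53), with an unadjusted p of 0.000218, FDR 0.312 with edgeR and FDR 0.0101 with DESeq2. Within the 2 parts of the CCl4 rats set by the number that opens their labels (15 or 20), the log2FC was 0.82 and 1.25.

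Stab2 with eplerenone was 29.5, 27.5, 11.45, 30.1 and 24.5 FPM, Clec4g was 27.7, 21.0, 18.0, 49.3 and 46.5 FPM and Lyve1 was 63.0, 43.4, 48.9, 36.5 and 53.5 FPM. No liver with eplerenone was as low as cirrhosis replicates 2 and 4 in any of the 3 genes, and replicate 3 had the lowest Stab2 and Clec4g of its group. The log2FC was 0.80 for Stab2 (95% interval -0.21 to 1.81, FDR 0.414), 0.81 for Clec4g (-0.44 to 2.07, FDR 0.494) and 0.23 for Lyve1 (-0.50 to 0.96, FDR 0.745). Leaving out cirrhosis replicate 2 moved them to 0.52, 0.50 and 0.0042. Stab1 was 27.5, 26.4, 33.0, 23.2 and 23.2 FPM with eplerenone, at a log2FC of 0.27 against cirrhosis (95% interval -0.12 to 0.66, FDR 0.470).

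Vwf was 33.3, 12.8, 73.7, 21.4 and 41.1 FPM with eplerenone and Plvap was 8.94, 4.07, 16.6, 8.92 and 15.1 FPM. The 5 livers came in the same order for both genes, with replicate 3 highest and replicate 2 lowest. Cirrhosis replicate 5 was the one liver of its group that overlapped with them. The log2FC was -1.17 for Vwf (SE 0.47, 95% interval -2.15 to -0.18, FDR 0.316) and -1.16 for Plvap (SE 0.36, -1.92 to -0.39, FDR 0.312). No member was called by edgeR when any 1 library was left out.

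Values of Vwf and Plvap were also taken within each label number, a split made after the data were seen. Among rats with number 15 (3 cirrhosis, 2 cirrhosis & eplerenone) the log2FC was -2.22 for Vwf and -2.19 for Plvap. Among those with number 20 (2 and 3 rats) it was 0.013 and -0.24. The difference between the numbers did not pass the test, at 2.24 for Vwf (p 0.0388, FDR 0.397) and 1.95 for Plvap (p 0.0146, FDR 0.380), and 0 genes passed an FDR of 0.05 for that term in edgeR. These values rest on 2 or 3 rats per group. For Ehd3 the log2FC within the numbers was 1.57 and 1.28, in the same livers from which it was picked for its rise. Those values are therefore no independent test.

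Cd34 with eplerenone had 33, 17, 87, 20 and 29 counts, or 1.69, 1.06, 3.52, 1.13 and 1.58 FPM, with replicate 3 far above the others. The log2FC against cirrhosis was 0.26 (95% interval -0.87 to 1.39, FDR 0.817) and turned to -0.17 without that liver.

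**Figure D4:**
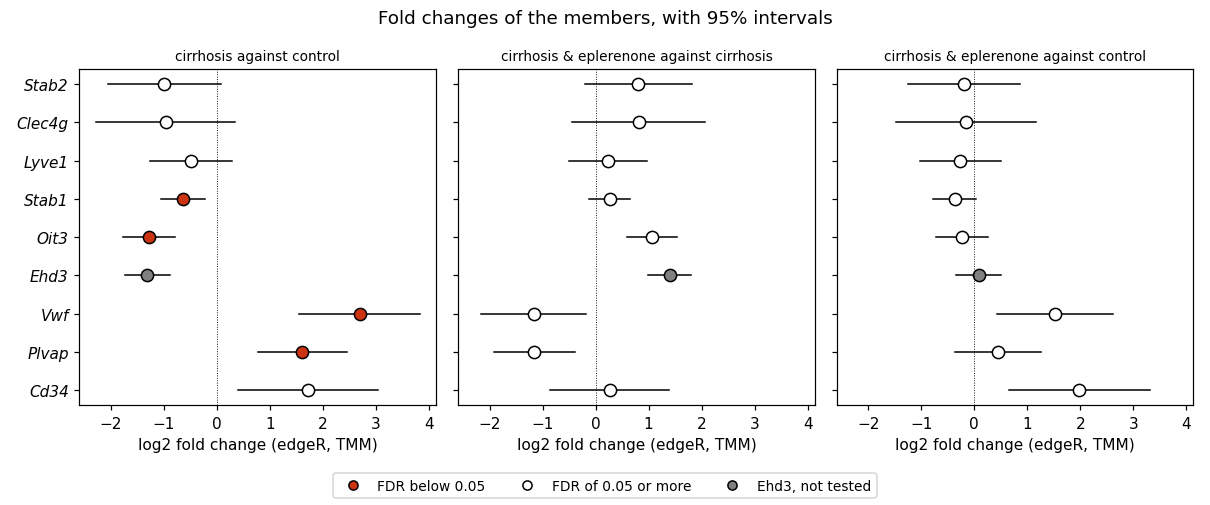
Log2 fold change of each member (edgeR, TMM scaling) with its 95% interval in the 3 comparisons, filled where the FDR was below 0.05 and grey for Ehd3, which was not tested. Because Ehd3 was picked for its rise in these same livers, its intervals are not to be read as a test. Stab1, Oit3, Vwf and Plvap are filled in cirrhosis against control, and no member is filled in either comparison with eplerenone.

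The third question was what distance from control remained with eplerenone. Again 0 of 8 genes passed with edgeR, beside 5.22% of all genes. The unadjusted p was below 0.05 for 2 of 8, Cd34 and Vwf, beside 20.5% of all genes, and DESeq2 called the same 2 genes (FDR 0.0205 and 0.0231), beside 10.6%. Cd34 of all 5 livers with eplerenone lay above all controls, which was so for 10.9% of all genes in either direction (log2FC 1.98, SE 0.62, FDR 0.0788). Vwf was 2.87-fold higher than control (1.52, SE 0.51, 95% interval 0.43 to 2.61, FDR 0.0981), with replicate 2 at 12.8 FPM inside the control range. Plvap was at 0.45 (-0.37 to 1.27, FDR 0.582). Of the sinusoidal genes, Oit3 was at -0.23 (-0.72 to 0.26), Stab1 at -0.37 (-0.78 to 0.04), Lyve1 at -0.26 (-1.03 to 0.51), Stab2 at -0.19 (-1.25 to 0.87) and Clec4g at -0.16 (-1.47 to 1.16). With libraries scaled by total counts the sign turned for Oit3, Lyve1, Stab2 and Clec4g (0.069 to 0.11), a scaling that moved the median of all genes to 0.32. These intervals leave room for differences from control in either direction.

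Levels relative to other endothelial genes were set against the mean log2 FPM of 18 genes that most endothelial cells express. That mean was 2.22 in cirrhosis replicate 5 and between 2.86 and 3.52 in the other 13 livers. Relative to it, Plvap was 1.69 higher on the log2 scale in cirrhosis than in control (exact permutation p 0.00794, two-sided, the smallest that 126 arrangements allow), Vwf 2.64 higher (exact p 0.0159) and Oit3 1.12 lower (exact p 0.0238). Allowing for the 8 tests made (Benjamini-Hochberg), none passed 0.05. Cd34 was 1.54 higher (exact p 0.0476). Without cirrhosis replicate 5, 5 genes passed (Stab1, Stab2, Oit3, Plvap and Vwf), and without any other single library 0 passed. That liver had the lowest mean of the 18 genes and the lowest Vwf and Plvap of its group. The 5 calls thus rest on leaving out a liver unlike its group in the genes tested, and they support nothing. With eplerenone against cirrhosis, Plvap was 1.47 lower (exact permutation p 0.00794), Vwf 1.42 lower (exact p 0.0317) and Oit3 0.79 higher (exact p 0.0635), and none passed after the same allowance. Ehd3 on this scale was 1.09 lower in cirrhosis than in control and 1.11 higher with eplerenone than in cirrhosis.

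The 18 general endothelial genes themselves were split in direction, 6 being higher and 12 lower (median log2FC -0.20). In cirrhosis against control 1 rose, Ecscr (log2FC 2.41, FDR 0.0132), an endothelial surface protein, and 2 fell, the sphingosine-1-phosphate receptor S1pr1 (-1.68, FDR 0.00307) and the VEGF receptor Kdr (-1.10, FDR 0.00754), beside 20.2% of all genes in either direction. S1pr1 also fell against control with eplerenone (-1.80, FDR 0.0059), beside 0.895% of all genes. Kdr was 18.3 to 36.1 FPM in cirrhosis against 40.5 to 71.7 FPM in controls. Cldn5 had 0 counts in every library. None of the 18 was called with eplerenone against cirrhosis by edgeR, 3 had an unadjusted p below 0.05, beside 14.4% of all genes, and DESeq2 called 1, beside 0.513%.

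Of 15 further sinusoidal genes tested, 6 fell, beside 6.71% of all genes, and 1 rose, beside 13.4%, in cirrhosis against control (median log2FC -0.77). The 4 largest decreases were the inhibitory Fc receptor Fcgr2b (-1.52, FDR 0.00194), the Wnt amplifier Rspo3 (-1.29, FDR 0.0311), the secreted DNase Dnase1l3 (-1.18, FDR 0.0239) and the transcription factor Gata4, which specifies sinusoidal endothelium (-1.12, FDR 0.00214). Fcgr2b was 57.5 to 67.3 FPM in controls, 13 to 36.6 FPM in cirrhosis and 29.2 to 48.6 FPM with eplerenone. Wnt9b, a Wnt ligand of central vein endothelium, rose (1.46, FDR 0.0248). The list did not move as a whole, since 4 of 15 had a positive fold change. With eplerenone against cirrhosis 0 of 15 passed with edgeR and with DESeq2, 5 had an unadjusted p below 0.05, beside 14.4% of all genes, and the median log2FC was 0.47. Against control 0 of 15 passed with eplerenone (4 at an unadjusted p below 0.05, beside 20.5% of all genes, and 2 with DESeq2, beside 10.6%).

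Genes of continuous capillaries and basement membrane rose in 8 of 17 cases and fell in none in cirrhosis against control, beside 13.4% and 6.71% of all genes (median log2FC 0.93). The 4 largest increases were in the apelin receptor Aplnr, the tetraspanin Cd9 (log2FC 3.61, FDR 0.00366), the laminin chain Lamb1 (2.03, FDR 0.00296) and caveolin Cav1 (1.69, FDR 0.0273). Aplnr was 0 to 0.173 FPM in the controls, at or under the floor of 3 counts, and 5.71, 10.0, 8.31, 7.33 and 0.0595 FPM in cirrhosis, where replicate 5 was again like control. With eplerenone against cirrhosis 0 of 17 passed with either tool (1 at an unadjusted p below 0.05, beside 14.4% of all genes), and the median was -0.21. With eplerenone against control 6 of 17 rose, beside 4.33% of all genes, the largest being Cd9 (2.64, FDR 0.0324), Lamb1 (1.61, FDR 0.0212), the collagen chain Col4a1 (1.45, FDR 0.0151) and nidogen Nid1 (1.22, FDR 0.0171), and the median was 1.18. That count was 0 without control replicate 2 or 3, 1 without control replicate 5 and 2 without cirrhosis & eplerenone replicate 3. Over all genes those fits called 417 of 14751, 312 of 14732, 221 of 14745 and 378 of 14221.

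**Figure D5:**
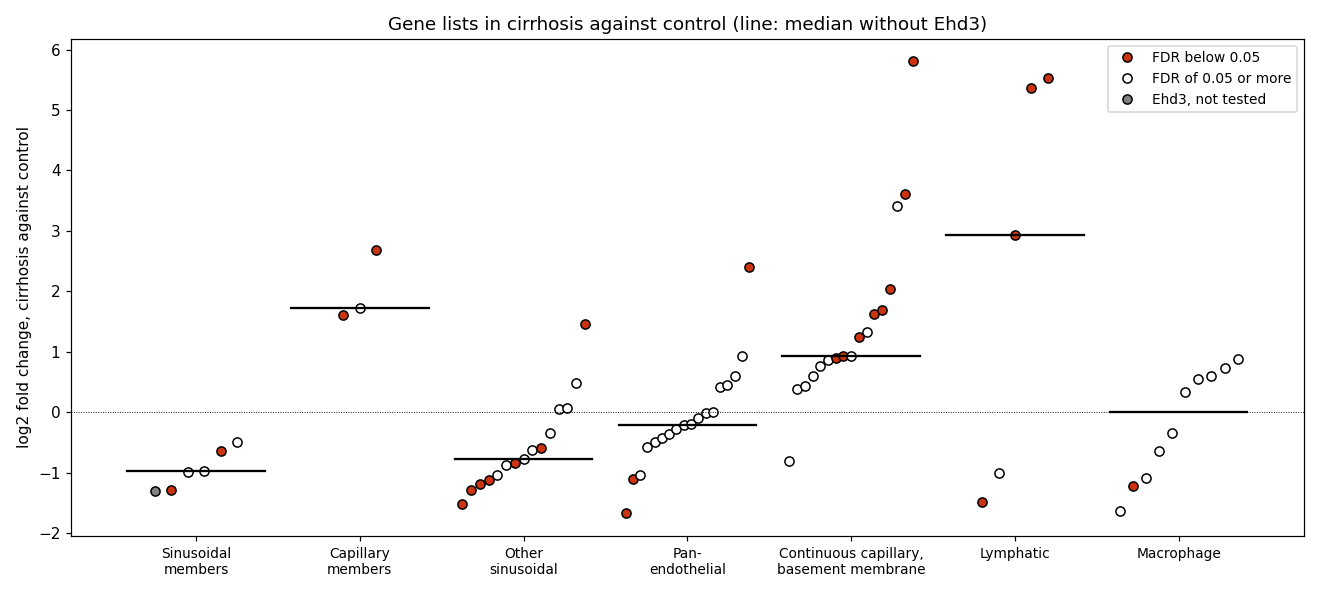
Log2 fold change in cirrhosis against control of every tested gene of 7 lists, filled where the FDR was below 0.05, with a line at the median of each list (Ehd3, in grey, is left out of it). Sinusoidal genes lie mostly below 0 (medians -0.97 and -0.77), capillary genes above it (1.72 and 0.93), and the general endothelial genes around -0.20.

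Cell types that share capillary or sinusoidal markers also differed between the groups. Lymphatic vessel markers rose in 3 of 5 cases in cirrhosis against control, beside 13.4% of all genes. These were the chemokine Ccl21 (log2FC 5.53, FDR 0.00279), Mmrn1 (5.36, FDR 0.00462) and Pdpn (2.93, FDR 0.0128). Mmrn1 had 5, 1, 5 and 3 counts in the controls, near the floor of 3 counts, so the size of its fold changes against control is uncertain. Its level ranged from 1.01 to 13.8 FPM in cirrhosis and from 0.501 to 25.5 FPM with eplerenone. The transcription factor Prox1, which hepatocytes also express, fell (-1.49, FDR 0.0423), beside 6.71% of all genes. With eplerenone against control 2 of 5 rose, Ccl21 (4.38, FDR 0.0160) and Mmrn1 (5.20, FDR 0.0135), beside 4.33% of all genes. Ccl21 was 3.87 to 10.4 FPM in controls, 369, 249, 566, 383 and 31.5 FPM in cirrhosis and 83.3, 14.6, 378, 31.5 and 213 FPM with eplerenone. Its lowest liver in cirrhosis was replicate 5 and in cirrhosis & eplerenone replicate 2, as for Vwf and Plvap. The summed level of the 5 lymphatic genes was 67.4 to 115 FPM in controls, 84.5 to 592 FPM in cirrhosis and 85.6 to 458 FPM with eplerenone. In controls most of this sum was Prox1 (mean 73.7 FPM, beside 6.93 for Ccl21, 0.486 for Pdpn and 0.214 for Mmrn1). In cirrhosis the mean was 26.3 FPM for Prox1 and 320 FPM for Ccl21. The overlap of the sums is thus not an overlap of the 3 markers that rose. The part of lymphatic vessels in the levels of Vwf and Lyve1 was not tested.

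Vwf is also made by megakaryocytes and carried by platelets. Of 7 platelet genes 2 passed the filter. In cirrhosis against control 1 of these 2 rose, Pf4 (log2FC 4.24, FDR 0.000523), beside 13.4% of all genes. Pf4 went from 0.127 to 0.794 FPM in controls to 9.71, 9.55, 19.5, 9.18 and 3.69 FPM in cirrhosis. Itga2b did not pass (-0.45, FDR 0.377). The summed level of both was 20.9 to 26.6 FPM in controls, 17.9 to 44.0 FPM in cirrhosis and 10.3 to 24.4 FPM with eplerenone. In controls nearly all of this sum was Itga2b (mean 23.0 FPM, beside 0.539 FPM for Pf4), so the sum does not show the change of Pf4. Gp1bb had 0 counts in every library, and Ppbp, Gp9, Gp1ba and Treml1 had at most 14 counts in any library. The part of platelets in the level of Vwf was not tested.

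Other lists gave the background of cells in the tissue. In cirrhosis against control 6 of 6 cholangiocyte genes, 6 of 11 stellate cell and myofibroblast genes, 4 of 8 lymphocyte genes and 2 of 5 mesothelial genes rose, beside 13.4% of all genes. Krt19 is in both the cholangiocyte and the mesothelial list. There was also a fall in 1 of 11 stellate cell and myofibroblast genes and in 1 of 8 hepatocyte genes, beside 6.71% of all genes. With eplerenone against cirrhosis edgeR called 0 genes of these lists. DESeq2 called 1 of 5 mesothelial genes, beside 0.513% of all genes. An unadjusted p below 0.05 was found for 3 of 11 stellate cell and myofibroblast genes, beside 14.4% of all genes. It was also found for 1 of 8 lymphocyte genes and 1 of 5 mesothelial genes. How far a larger share of such cells enters the levels of the members, or of the capillary and basement membrane genes, was not tested.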

How the data were processed

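RNA of 15 rat livers, 5 per group, was sequenced by the authors (poly(A) RNA, paired reads), who mapped the reads to rn6 with HISAT2 2.1.0 and counted them over exons with featureCounts, multi-mapping reads included, so genes with near-identical copies are uncertain. Whether counting used strand is not given in the sources used here. The deposited table holds raw counts per gene. The labels list 15 samples, and 14 columns were used (0 columns were left aside). Control replicate 1 was not analysed here. The authors set 1 control aside by principal component analysis.

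Genes were filtered with filterByExpr (minimum count 10), scaled by TMM and fitted in 1 model over 3 groups with edgeR 4.0.16 in R 4.3.3 (quasi-likelihood test). Correction for multiple testing over 14417 genes followed Benjamini and Hochberg, and genes with FDR below 0.05 were called. FPM are counts per 1e+06 of the TMM library size, log2 values use a prior count of 2, and 95% intervals use the t distribution of the fit. DESeq2 1.42.0 was an alternative. The scripts were tested on simulated data. Floors of 3 counts cover counting error. FPM are not divided by gene length, so levels are not compared between genes. Groups were taken from the labels. The replicates are different rats, and samples with the same replicate number did not deviate together.

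The test was planned for 9 members other than Ehd3; 8 had a row. Members and gene lists were chosen with earlier results of these data known. Named genes were all members, per list and comparison at most the 4 largest called changes in each direction, and the 5 genes most like Ehd3, Stab2 and Cd34; Clec4f, Vsig4, Itga2b and untested list genes were named after their values were seen, as were the EHD genes that did not pass. Alternatives changed scaling, filter, tool, samples and the replicate block. The fit within label numbers was added after the data were seen.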

Additional observations from a re-analysis of the deposited data

Results flagged for a closer look

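The extreme value of each group was set against the gap to its neighbour with Dixon's ratio for the 9 members in 3 groups, 27 checks in all, of which chance flags about 1 in 20. There were 2 values apart from their group. Stab1 in control replicate 2 was 49.1 FPM, above 28.6 to 31.5 FPM in the other controls, and without this liver the decrease of Stab1 in cirrhosis went from -0.64 to -0.42 on the log2 scale (edgeR FDR 0.112). Cd34 in cirrhosis & eplerenone replicate 3 was 3.52 FPM (87 counts), above 1.06 to 1.69 FPM in the other 4 livers. The same liver was also highest of its group in Vwf (73.7 FPM) and Plvap (16.6 FPM) and lowest in Stab2 (11.45 FPM) and Clec4g (18.0 FPM), and had the largest TMM factor of the 14 libraries (1.40).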

How the results depend on the processing

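Of 240 member results under other settings, not counting fits that left out 1 library, 218 were unchanged. For tested genes this means direction and side of the threshold, and for Ehd3 direction and a shift below its pooled SD within groups. In cirrhosis against control, members called ranged from 3 to 5 when 1 library was left out. Over all genes those fits called from 1365 (without control replicate 5) to 4612 (without cirrhosis replicate 5), beside 2906 in the main fit. In eplerenone against cirrhosis the member count went from 0 to 1 with DESeq2, beside 74 of 14417 genes, and was 0 to 0 on leaving out 1 library. It went to 3 with 4 libraries per group (Vwf, Plvap and Oit3), beside 1294 of 14126 genes, against 2 of 14417 in the main fit. The 2 livers left out in that setting, chosen with earlier results known, are cirrhosis replicate 5, lowest of its group in Vwf and Plvap, and cirrhosis & eplerenone replicate 3, highest in both, so its calls are conditioned on the outcome and support nothing. Against control with eplerenone the member count went from 0 to 2 with total counts and with DESeq2, beside 1351 and 1523 of 14417 genes. It was 1 when the 2 groups were fitted alone, beside 784 of 13635 genes. On leaving out 1 library it was 0 to 1 (Vwf, without cirrhosis replicate 5 or cirrhosis & eplerenone replicate 2). Those 2 fits called 1080 of 14356 and 1277 of 14374 genes, beside 753 of 14417 in the main fit. Relative to the median of the general endothelial genes 3 members were called in cirrhosis against control, and 0 to 5 on leaving out 1 library, beside 0 to 0 in both other comparisons. For lists, the capillary and basement membrane count with eplerenone against control was 10 with total counts and with DESeq2 and 0 to 9 on leaving out 1 library (5 to 10 in cirrhosis against control). The fits without 1 library called from 221 to 1277 of all genes in eplerenone against control. The general endothelial count was 5 with DESeq2 and with 4 libraries per group in cirrhosis against control (3 to 5 on leaving out 1 library). Those 2 settings called 4007 of 14417 and 4832 of 14126 genes. In eplerenone against control that count was 2 with total counts, DESeq2, 4 libraries per group or the 2 groups alone (1 to 2). With 4 libraries per group 688 of 14126 genes were called there. The further sinusoidal count was 2 to 9 in cirrhosis against control, lowest without control replicate 5, and with eplerenone against control 2 with DESeq2 or the 2 groups alone (0 to 1). Signs turned for Cd34 in eplerenone against cirrhosis (-0.34 with 4 libraries per group, and -0.17 to 0.60 on leaving out 1 library, lowest without cirrhosis & eplerenone replicate 3), for Vwf in a fit of label number 20 alone (0.010), for Ehd3 in eplerenone against control without control replicate 2 (-0.031 to 0.27 on leaving out 1 library, and 0.39 with total counts), and with total counts in eplerenone against control for Clec4g (0.11), Lyve1 (0.069), Oit3 (0.082) and Stab2 (0.072). Stab1 in cirrhosis against control lost its call at -0.58 (FDR 0.0553) with at least 10 counts in every library and at -0.62 (FDR 0.0516) with the 2 groups alone. The cause of these changes was not tested.

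The replicate number was also fitted as a block, although it does not pair rats (correlations of same-numbered deviations from -0.33 to 0.19). With the replicate block 4 members were called in cirrhosis against control and 0 in both other comparisons, the further sinusoidal count was 4 and 1, and the capillary and basement membrane count with eplerenone against control was 0. Of 14417 genes the block called 1743 in cirrhosis against control, 0 in eplerenone against cirrhosis and 270 in eplerenone against control.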

Other observations

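Erg, an endothelial transcription factor of the general endothelial list, was singled out after its values were seen. It was 0.666, 2.37, 0.485, 1.95 and 1.37 FPM in cirrhosis and 4.34, 4.07, 3.93, 4.01 and 2.90 FPM with eplerenone, without overlap, which was so for 0.964% of all genes, and 2.54 to 3.32 FPM in controls. The log2FC was 1.48 (SE 0.37, unadjusted p 0.00111, edgeR FDR 0.312, DESeq2 FDR 0.0227) with eplerenone against cirrhosis and -1.04 (SE 0.39, edgeR FDR 0.0675, DESeq2 FDR 0.0371) in cirrhosis against control.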
